A study of Mus musculus with 10 samples.

Results

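The genes described here are 10 genes of serine synthesis, of the folate cycle that uses serine, and of the response driven by the transcription factor ATF4: Atf4, Phgdh, Psat1, Psph, Shmt1, Shmt2, Mthfd2, Asns, Chac1 and Trib3. They were chosen by name, with earlier results of the same libraries known, and each was matched to 1 of the 31053 gene symbols in the count matrices. Phgdh was also among the leading genes of a cluster of mutant cells. Their levels and fold changes are therefore given as a description, without a test of their own. The data are UMI counts (unique molecular identifiers, so that copies of a captured RNA count once) of single EpCAM+ cells from distal mouse lung, sorted as RFP+ or YFP+. In Sftpc-CreERT2; R26R-Confetti mice, Cre under the Sftpc promoter, which is active in alveolar type 2 (AT2) cells, lets wildtype cells express RFP or YFP (Confetti RFP and Confetti YFP, 1 library each). In the mosaic mice, a second line with Sftpc-CreERT2, RFP+ cells are mutant whereas their YFP+ neighbours stay wildtype. They were sorted 4 days after induction (groups 4 days RFP and 4 days YFP) or 2 weeks after it (2 weeks RFP, 2 weeks YFP), with 2 libraries per group. All mice were adults that had 3 doses of 0.2 mg tamoxifen per gram body weight, lungs were pooled within a sample, and only the study's methods place Confetti at 2 weeks.

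Cells make serine from a glycolytic intermediate in 3 steps that PHGDH, PSAT1 and PSPH catalyse in this order. The hydroxymethyltransferases SHMT1 (cytosol) and SHMT2 (mitochondria) then turn serine into glycine and load its carbon onto folate, and mitochondrial MTHFD2 passes that carbon on for nucleotide synthesis. ATF4 is translated when eIF2 kinases sense amino acid shortage, endoplasmic reticulum (ER) stress or other stresses, so that its protein can change while its mRNA does not. Its known targets include the genes of serine synthesis, Asns (asparagine synthetase), Chac1 (an enzyme that degrades glutathione) and Trib3 (a pseudokinase that feeds back on ATF4).

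ATF4 with a C/EBP partner binds a composite element, and the promoters of the members were searched for 1 form of it because several members differed together between libraries. The motif was TGATGNAA, searched on both strands of the 300 bases around each RefSeq start (GRCm38.p6, 250 before and 50 after). It was found in 3 of 10 members, and 3.97% of all 32851 windows hold it. The 3 stretches are shown here with the match in capitals. It lies at bases -23 to -16 of Asns on the strand of the gene, at -193 to -186 of Chac1 and at 15 to 22 of Trib3 on the opposite strand, counted from the start at 1.
Asns, chr6:7693210-7693459, minus strand: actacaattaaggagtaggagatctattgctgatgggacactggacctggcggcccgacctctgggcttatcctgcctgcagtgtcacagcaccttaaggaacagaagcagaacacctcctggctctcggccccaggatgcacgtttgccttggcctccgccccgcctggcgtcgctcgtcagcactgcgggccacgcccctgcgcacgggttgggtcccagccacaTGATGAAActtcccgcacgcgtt
Chac1, chr2:119350992-119351241, plus strand: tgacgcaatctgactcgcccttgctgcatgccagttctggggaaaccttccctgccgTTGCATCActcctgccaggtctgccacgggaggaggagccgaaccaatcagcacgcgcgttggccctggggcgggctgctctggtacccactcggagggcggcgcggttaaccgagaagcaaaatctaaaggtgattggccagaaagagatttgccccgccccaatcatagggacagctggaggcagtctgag
Trib3, chr2:152344031-152344280, minus strand: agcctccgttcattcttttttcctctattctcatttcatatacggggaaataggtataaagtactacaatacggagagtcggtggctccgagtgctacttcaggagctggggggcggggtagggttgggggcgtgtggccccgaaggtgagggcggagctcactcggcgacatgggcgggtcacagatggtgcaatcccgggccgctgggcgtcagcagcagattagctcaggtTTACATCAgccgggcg
The windows of Phgdh, Psat1, Psph, Shmt1, Shmt2, Mthfd2 and Atf4 did not hold these letters. A match is a description of the sequence, and a window without one says only that these letters are not in it.

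The libraries held 42012 barcodes, of which 32698 were kept as cells and 29582 as alveolar cells, whose UMIs were summed per library (7344247 to 71563815). The median depth was 15815 and 13385 UMIs per cell in 2 weeks RFP and 3251 to 6714 elsewhere. AT2 markers (9 genes, among them Sftpc) were abundant in every library, at 95597 to 256051 CPM in sum, so the labelled lineage was borne out. CPM are UMI counts relative to the library total, scaled by TMM. These sums do not show how many cells were in the AT2 state. Clusters named AT2 by their markers held 81.5% and 74.7% of alveolar cells in Confetti and 1.95% and 0.94% in 2 weeks RFP. The replicates of 4 days RFP stood apart: 36.3% of cells in replicate 2 were DATP-like against 1.13% in replicate 1. DATP stands for damage-associated transient progenitors, a transitional state marked by Krt8 among others. Replicates of 4 days YFP differed too, with 77.2% of cells in AT2-named clusters in replicate 1 and 0.95% in replicate 2. In 2 weeks RFP, 7.28% and 51.2% of cells lay in clusters without a name. Replicate 2 of each mosaic group had Xist at 0.464 CPM or less, replicate 1 had 96.3 to 575 CPM, and Confetti had 703 and 641 CPM. Y-linked genes were at 0 and 0.131 CPM in Confetti and at 29.7 to 97.4 in the mosaic libraries, so a comparison with Confetti also compares mouse lines and sexes, which cannot be told apart. At most 12 cell barcodes were shared by 2 libraries. With sums over cells, more cells that express a gene and more RNA per cell cannot be told apart.

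Atf4 itself was near level across the groups. Its level was 127 CPM in both Confetti libraries, 139.7 and 168 in RFP of 4 days, 120.5 and 123 in YFP of 4 days, 151 and 107 in 2 weeks RFP, and 176 and 91.2 in 2 weeks YFP. The lowest and the highest library were both wildtype cells of 2 weeks, where the colours overlapped, while at 4 days both RFP libraries lay above both YFP libraries. The difference of 2 weeks RFP from 2 weeks YFP was -0.05 (log2, SE 0.35), that from Confetti was 0.02 (SE 0.35), and that of RFP from YFP at 4 days was 0.33 (SE 0.35). Of the 10 members, Atf4 had the narrowest range of group means, 1.26-fold.

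Phgdh, which encodes the first enzyme of serine synthesis, had the widest range, 55.6-fold between the means of 4 days RFP and Confetti YFP. Its level was 2.17 and 1.90 CPM in Confetti RFP and YFP, 6.68 and 6.84 in 4 days YFP, 5.28 and 18.3 in 2 weeks YFP, 16.9 and 194 in 4 days RFP, and 74.8 and 82.3 in 2 weeks RFP. Both mutant groups had higher means than every wildtype group, but 4 days RFP replicate 1 lay below 2 weeks YFP replicate 2. The means fell in the order 4 days RFP, 2 weeks RFP, 2 weeks YFP, 4 days YFP and Confetti. The first 2 overlap, since the libraries of 4 days RFP lie on both sides of 2 weeks RFP, and so do both YFP groups. The fitted difference was 5.27 (log2, SE 1.13) for 2 weeks RFP against Confetti, 2.79 (SE 1.00) for RFP against YFP at 2 weeks and 3.96 (SE 1.04) at 4 days. Wildtype cells of 2 weeks differed from Confetti by 2.48 (SE 1.05). The 2 weeks difference between colours was 3.896 (SE 1.32) without 2 weeks YFP replicate 2, 2.09 (SE 1.20) without 2 weeks YFP replicate 1, and 1.15 (SE 1.17) when the discarded cells were left in, and that of 2 weeks YFP from Confetti was 1.37, 3.19 and 3.54 in the same order.

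Psat1, the aminotransferase of the second step, was also highest in RFP, with a smaller range, 11.2-fold. Its level was 2.35 and 3.8 CPM in Confetti, 4.52 and 6.49 in 4 days YFP, 6.82 and 8.50 in 2 weeks YFP, 8.09 and 30.3 in 4 days RFP, and 23.4 and 29.3 in 2 weeks RFP. All 4 wildtype mosaic libraries lay above both Confetti libraries, and the libraries of 2 weeks RFP lay above all wildtype libraries. The difference of 2 weeks RFP was 3.14 (log2, SE 0.58) from Confetti (3.81 without cycling clusters) and 1.79 (SE 0.55) from 2 weeks YFP. Psph, the phosphatase of the last step, had the smallest differences of the 3 enzymes. It was at 7.25 and 5.44 CPM in Confetti, 7.05 and 10.99 in 4 days YFP, 6.22 and 9.78 in 2 weeks YFP, 9.61 and 20.3 in 4 days RFP, and 13.6 and 21.2 in 2 weeks RFP. Its mutant and wildtype groups overlapped at 4 days and did not at 2 weeks, where the difference was 1.14 (log2, SE 0.45).

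**Figure D1:**
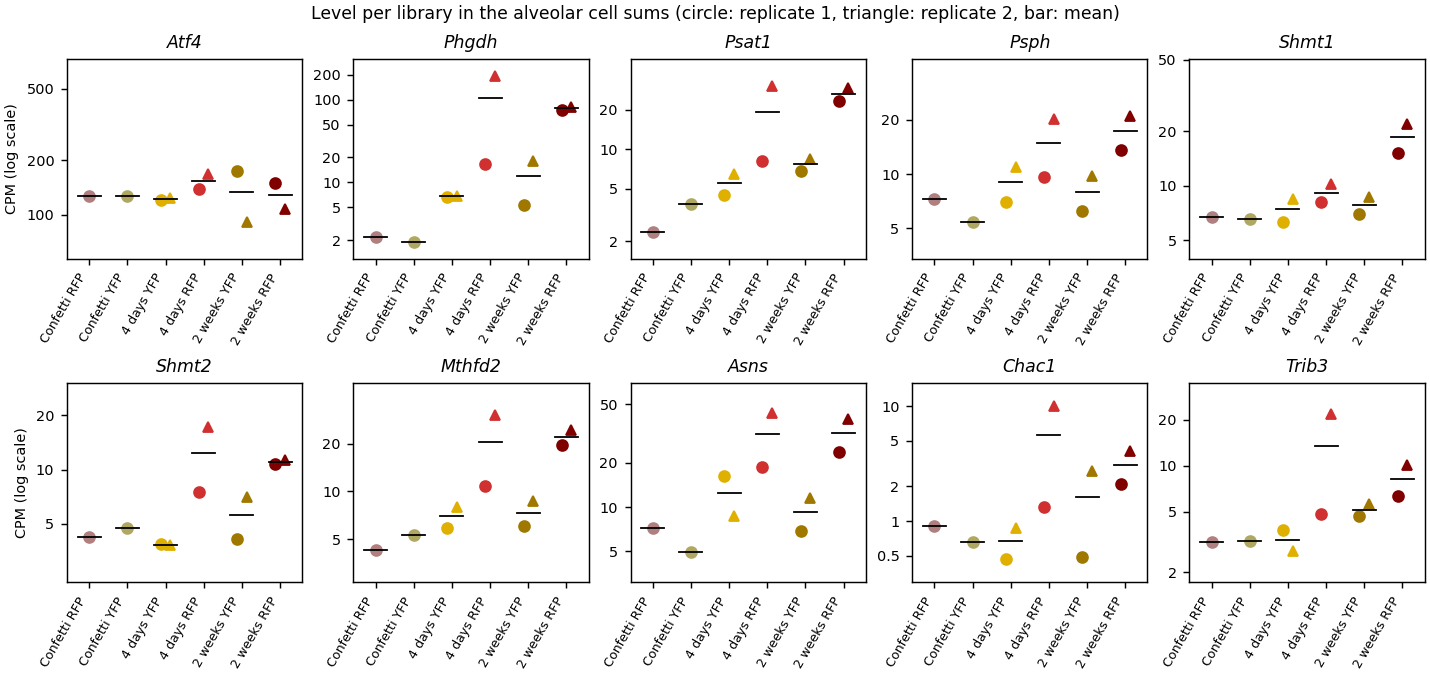
Level of each of the 10 genes in CPM (log scale) in the sums over alveolar cells, by group. Circles are replicate 1, triangles replicate 2 and bars group means; Atf4 is near level, while the other 9 genes have their highest library in 4 days RFP or 2 weeks RFP, and 4 days RFP replicate 2 lies far above replicate 1 for Phgdh, Chac1 and Trib3.

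Of the folate genes, Shmt1, the cytosolic enzyme, was at 6.70 and 6.55 CPM in Confetti, 6.30 and 8.47 in 4 days YFP, 8.09 and 10.2 in 4 days RFP, 15.1 and 22.1 in 2 weeks RFP, and 6.97 and 8.66 in 2 weeks YFP. Only the libraries of 2 weeks RFP stood above the others, and the difference from YFP was 0.30 (log2, SE 0.31) at 4 days and 1.26 (SE 0.31) at 2 weeks. Over all genes, 0 of 13781 passed the test of a difference between the time points (edgeR, 213 at an unadjusted p under 0.05). Shmt2, the mitochondrial enzyme, was at 7.53 and 17.3 CPM in 4 days RFP and 10.8 and 11.3 in 2 weeks RFP, against 3.8 to 7.05 in the 4 YFP libraries and 4.23 and 4.72 in Confetti. Every mutant library lay above every wildtype library, with a difference of 1.68 (log2, SE 0.44) at 4 days and 1.01 (SE 0.43) at 2 weeks. Mthfd2 gave 10.8 and 30.3 CPM in 4 days RFP and 19.6 and 24.5 in 2 weeks RFP, against 5.93 to 8.66 in the YFP libraries and 4.29 and 5.31 in Confetti. Its colours did not overlap either, and the difference was 1.54 (SE 0.47) at 4 days, 1.6 (SE 0.47) at 2 weeks and 2.21 (SE 0.48) against Confetti.

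Among the ATF4 targets outside serine synthesis, Asns was at 18.8 and 44.0 CPM in 4 days RFP and 23.8 and 39.8 in 2 weeks RFP. The YFP libraries had 16.4 and 8.71 at 4 days and 6.82 and 11.5 at 2 weeks, and Confetti had 7.18 and 4.91. Every mutant library lay above every wildtype library, by as little as 1.15-fold between the replicates 1 of 4 days, and the difference was 1.32 (log2, SE 0.51) at 4 days and 1.82 (SE 0.52) at 2 weeks. Chac1 and Trib3 were both highest in 4 days RFP replicate 2. Chac1 was at 9.98 CPM in 4 days RFP replicate 2 and at 0.47 to 4.06 in the 9 other libraries, where it rested on 5 to 166 UMIs. Trib3 was at 21.9 CPM in that library, at 4.85 in replicate 1, at 6.33 and 10.1 in 2 weeks RFP, and at 2.75 to 5.61 in the YFP and Confetti libraries. The 2 weeks difference between colours was 1.11 (log2, SE 1.05) for Chac1 and 0.68 (SE 0.62) for Trib3, in each case about the size of its standard error. For Chac1 it was 0.16 without 2 weeks YFP replicate 1 and 2.64 without replicate 2. The 4 days difference was 2.99 (SE 1.11) for Chac1 and 2.03 (SE 0.65) for Trib3.

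At 4 days 8 of the members depended on RFP replicate 2. Without it the log2 fold change was 1.32 (SE 0.59) for Phgdh, 0.55 (SE 0.34) for Psat1, 0.08 (SE 0.44) for Psph, 0.98 (SE 0.38) for Shmt2, 0.62 (SE 0.35) for Mthfd2, 0.59 (SE 0.50) for Asns, 0.92 (SE 1.00) for Chac1 and 0.59 (SE 0.43) for Trib3, each over 1.5-fold below the value from all libraries. Without RFP replicate 1 it was 4.85 for Phgdh, 2.45 for Psat1, 3.84 for Chac1 and 2.77 for Trib3. With the replicate block or with the discarded cells left in, Phgdh was at 3.19 and 3.22.

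**Figure D2:**
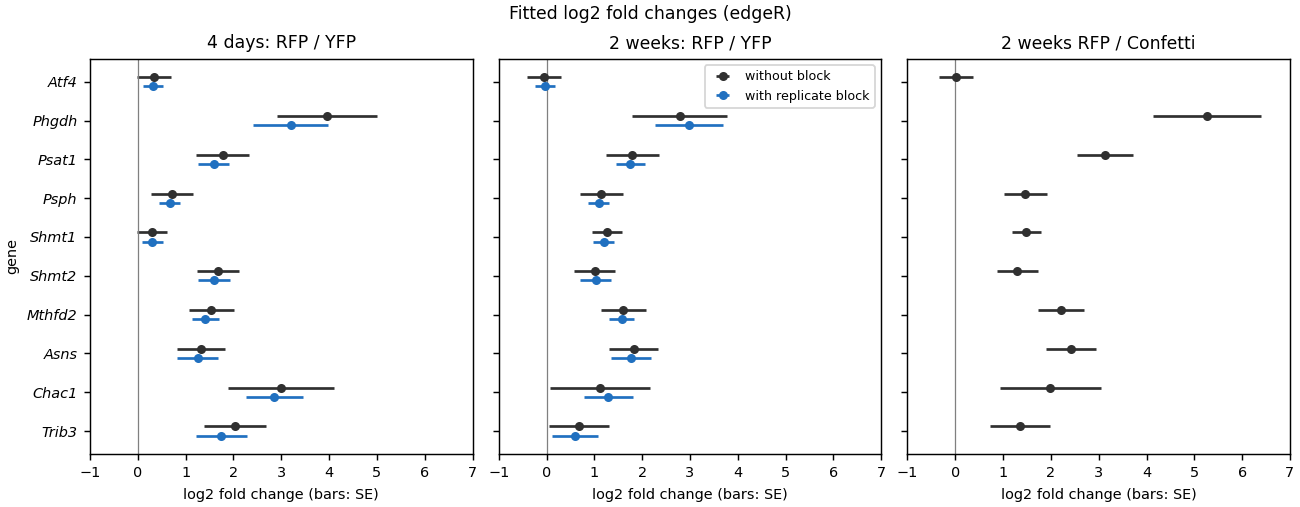
Log2 fold change of each gene from edgeR, with its standard error, for RFP against YFP at 4 days and at 2 weeks and for 2 weeks RFP against Confetti. Black points are the fit without and blue points the fit with the replicate number as a block; Atf4 lies at 0 within its error in each panel except at 4 days with the block, where it is 0.32 (SE 0.21).

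RFP exceeded YFP of the same time point and replicate number in all 4 such pairs for 9 of the 10 members, while over all genes tested this held for 19.2%. The exception was Atf4, with 3 of 4 pairs. The median ratio over the 4 pairs was 9.34 for Phgdh, 3.55 for Chac1, 3.47 for Asns, 3.44 for Psat1, 3.03 for Mthfd2, 2.28 for Shmt2, 2.01 for Psph, 1.73 for Shmt1, 1.57 for Trib3 and 1.17 for Atf4. For Phgdh the ratios ran from 2.53 to 28.4. All 4 mutant libraries lay above all 4 wildtype mosaic libraries for 3 members (Asns, Mthfd2 and Shmt2), against 4.27% of all genes tested. Both mutant libraries lay above both wildtype ones for 8 members at 4 days (15.8% of all genes) and 8 at 2 weeks (28.3%). Both 2 weeks RFP libraries lay above both Confetti libraries for 9 members (37.3% of all genes), and both 2 weeks YFP libraries did so for 5 (25% of all genes): Phgdh, Psat1, Mthfd2, Shmt1 and Trib3. Since the members were picked with such values in view, nothing is read from these counts beyond the description.

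At an adjusted p of 0.05 (edgeR quasi-likelihood test, Benjamini-Hochberg over all genes tested), 733 genes were called between 2 weeks RFP and Confetti, 5.32% of 13781. The count ran from 1 without either Confetti library to 1915 without 4 days RFP replicate 2. The called genes included 5 members, Phgdh, Psat1, Shmt1, Mthfd2 and Asns, all higher. The count of members was 8 without either 4 days RFP library and 0 without any 1 of the other 8 libraries. Between 2 weeks YFP and Confetti 6 genes were called (0.0435%) and no member. Between RFP and YFP, 0 genes were called over both time points (0%, 2761 of 12844 at an unadjusted p under 0.05, 1254 with DESeq2), 0 at 2 weeks (0%, 2252 of 13781, 462 with DESeq2) and 0 at 4 days (0%, 780 of 13781, 96 with DESeq2). Without 4 days RFP replicate 1 these counts were 1482 over both time points and 193 at 4 days. With the replicate number as a block, edgeR called 2240 genes over both time points (17%) with 8 members among them, 2183 at 2 weeks (16.5%) with 6 members, and 141 at 4 days (1.07%) with no member. Every called member was higher in RFP. The median log2 difference over the members was 1.44 over both time points, 1.61 at 4 days and 1.20 at 2 weeks, beside -0.03, -0.01 and 0.01 over all genes tested. At 4 days it was 0.59 without RFP replicate 2.

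Other genes of these pathways were taken from 5 lists that hold no member, with 103 genes found in the matrices and 102 tested at 2 weeks. In 2 weeks RFP against Confetti 9 of the 102 were called (8.82%, beside 5.32% of all genes), 8 higher and 1 lower (56 at an unadjusted p under 0.05, and 38 with DESeq2, 37.3% beside 16.1%). The count was 0 without either Confetti library, without 2 weeks RFP replicate 2, without either 2 weeks YFP library and with the discarded cells left in. It was 1 without either 4 days YFP library, 4 without 2 weeks RFP replicate 1, and 34 and 35 without 4 days RFP replicates 1 and 2, so none of the calls against Confetti named below held with 1 of the Confetti libraries left out. Between RFP and YFP without the block none was called with edgeR over both time points, at 2 weeks or at 4 days (38, 31 and 19 at an unadjusted p under 0.05, and 19, 7 and 2 with DESeq2). With the block 31 were called over both time points (30.7%, beside 17% of all genes), 27 higher and 4 lower, and 27 at 2 weeks (26.7%, beside 16.5%), 23 higher and 4 lower. In wildtype cells of 2 weeks against Confetti none was called (7 unadjusted, 1 with DESeq2).

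The serine, glycine and folate list held genes called in both directions. Of its 26 tested genes, 3 rose and 1 fell in 2 weeks RFP against Confetti (15.4%, beside 5.32% of all genes). DESeq2 called 12, of which 8 were higher and 4 lower (46.2%, beside 16.1%). The median log2 difference of the list was 0.14 beside 0.03 over all genes. Among the genes called with edgeR was Sdsl, a gene related to serine dehydratase. It had 3 and 2 UMIs in Confetti and 6.42 and 13.1 CPM in 2 weeks RFP (log2 5.94, SE 0.94, adjusted p = 0.036 with edgeR). Sfxn1, the carrier that brings serine into mitochondria, rose by 1.94 (SE 0.41, adjusted p = 0.0442), from 15.9 and 13.3 CPM to 38.5 and 73.2. Cbs, which uses serine to make cystathionine, fell by 2.17 (SE 0.47, adjusted p = 0.0442), from 3.32 and 2.95 CPM to 0.83 and 0.54. With the block, Cbs and Aldh1l1, the cytosolic enzyme that oxidises formyl-folate, were also lower in RFP than in YFP over both time points (log2 -1.5 and -1.34), while Mthfd1l, a mitochondrial folate enzyme downstream of Mthfd2, was higher (2.45, SE 0.44), as were Sdsl (1.77), the transporter Slc1a4 (1.40) and Ahcy (1.26), which hydrolyses S-adenosylhomocysteine. In all, 7 of 26 rose and 4 fell there (42.3%, beside 17% of all genes). Without the block edgeR called none, and DESeq2 called 2 higher and 3 lower (19.2%, beside 9.76% of all genes).

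**Figure D3:**
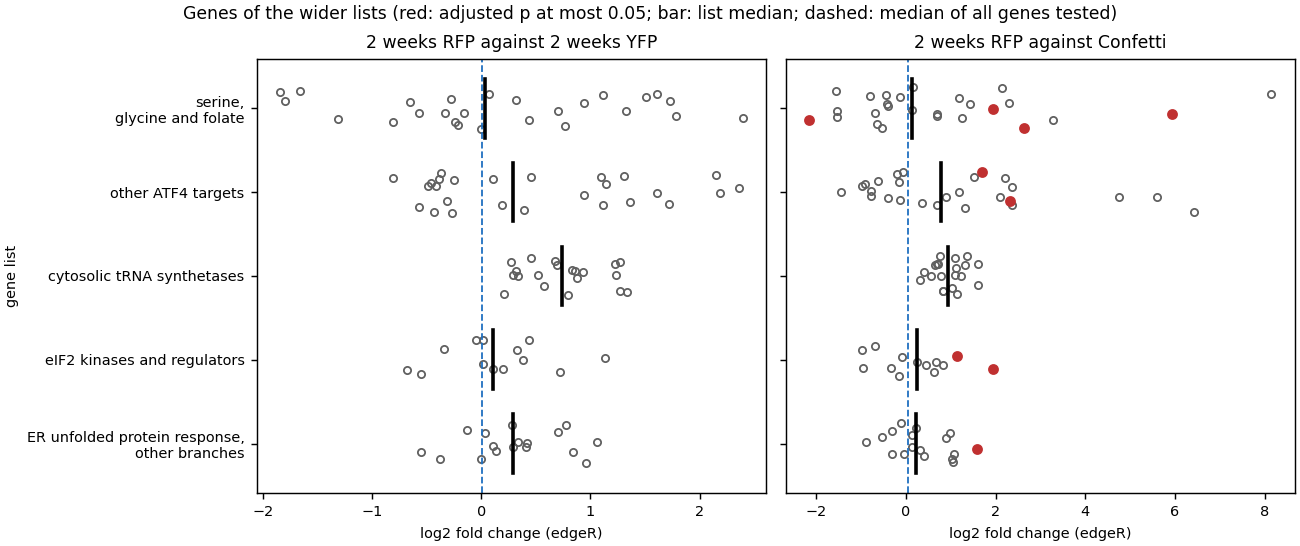
Log2 fold change of each gene in 5 lists of related genes that hold none of the 10 members, for 2 weeks RFP against 2 weeks YFP and against Confetti. Filled red points are genes at an adjusted p of at most 0.05, of which there are 0 and 9, black bars are list medians and the dashed line is the median of all genes tested; the median of tRNA synthetases lies at 0.74 and 0.93.

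The other ATF4 targets included transporters, synthesis enzymes, secreted factors and transcription factors. Atf3, a transcription factor, was at 787 and 342 CPM in 2 weeks RFP and 1008 and 334 in 2 weeks YFP, so the colours overlapped. In Confetti it was at 203 and 193. Against Confetti, 2 of the 26 genes of the list passed in 2 weeks RFP (7.69%, beside 5.32% of all genes), and the list median was 0.79. DESeq2 called 11, of which 9 were higher and 2 lower (42.3%, beside 16.1%). Gdf15, a secreted stress factor, rose by 1.69 (SE 0.32, adjusted p = 0.0416), from 68.3 and 75.2 CPM to 236 and 225. Its level was 155 and 162 in 4 days RFP and 40.7 to 82.7 in the 4 YFP libraries, so that the colours did not overlap and the wildtype libraries lay around Confetti. Aldh18a1, an enzyme of proline synthesis, rose by 2.32 (SE 0.54, adjusted p = 0.0492), from 1.15 and 1.11 CPM to 5.02 and 6.36. Slc7a11, the cystine transporter, was at 0.24 and 0.33 CPM in Confetti and 9.73 and 5.72 in 2 weeks RFP and did not pass (log2 4.76, SE 1.501, adjusted p = 0.0838). With the block, 9 of 25 rose in RFP against YFP over both time points and none fell (36%, beside 17% of all genes). Without it edgeR called none and DESeq2 called 6 of 24, all higher (25%, beside 9.76% of all genes). The genes that rose with the block included Slc7a11 (2.88, SE 0.44), Slc7a1 (2.04, SE 0.49), Pycr1 (1.87, SE 0.34), Gdf15 (1.56, SE 0.17) and Eif4ebp1 (1.24, SE 0.23). Stc2 was called there too, but had 2 UMIs in the 4 YFP libraries together, 54 and 7 in 2 weeks RFP and 0 and 27 in 4 days RFP.

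Of the 20 cytosolic tRNA synthetases, which charge tRNAs and are known ATF4 targets in part, none passed against Confetti with edgeR. Rars came nearest there (log2 1.62, SE 0.40, adjusted p = 0.0524). At an unadjusted p under 0.05 there were 14 of the 20, beside 4286 of all 13781 genes. DESeq2 called 7, all higher (35%, beside 16.1% of all genes). The median log2 difference of the 20 was 0.93 against Confetti, 0.74 at 2 weeks and 0.72 at 4 days between colours. All 3 stood beside values near 0 over all genes. The 4 days median rested on RFP replicate 2 and was 0.10 without it. Aars, for example, was at 14.1 and 57.7 CPM in 4 days RFP and 14.96 and 20.6 in 4 days YFP. All 20 had both RFP libraries above both YFP libraries at 2 weeks, beside 28.3% of all genes, and 9 of 20 did at 4 days, beside 15.8%. With the block 10 of 20 rose over both time points (50%, beside 17% of all genes). They were led by Cars (1.45, SE 0.30), Rars (1.19, SE 0.20), Tars (1.13, SE 0.19), Iars (1.02), Wars (0.91) and Nars (0.87). Without the block edgeR called none and DESeq2 called 8, all higher (40%, beside 9.76% of all genes). Among eIF2 kinases and regulators, 2 of 13 passed against Confetti (15.4%, beside 5.32% of all genes). DESeq2 also called 2, which is near the share of all genes there (15.4%, beside 16.1%). With edgeR Eif2s1, the alpha subunit of eIF2, rose by 1.94 (SE 0.40, adjusted p = 0.0442). Eif2ak2, the kinase activated by double-stranded RNA, rose by 1.13 (SE 0.26, adjusted p = 0.047). The other 11 of 13 did not pass, Eif2b1 among them (0.82, SE 0.24, adjusted p = 0.0739). For the other branches of the ER unfolded protein response, 1 of 17 passed (5.88%, beside 5.32% of all genes), and 6 did with DESeq2, all higher (35.3%, beside 16.1%). The 1 was the ER chaperone cofactor Sdf2l1 (1.58, SE 0.27, adjusted p = 0.0376). Hspa5, the main ER chaperone, gave 1.06 (SE 0.26, adjusted p = 0.0522) and did not pass, and with the block 0 of 17 passed between colours over both time points (edgeR, 2 at an unadjusted p under 0.05, and 0 with DESeq2 without the block) and 0 at 4 days (1 unadjusted, 0 with DESeq2). At 2 weeks with the block Hspa5, Hsp90b1, Calr and Sdf2l1 rose in RFP and none fell (23.5% of the list, beside 16.5% of all genes).

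Stress and cycling genes also differed among the libraries. Heat shock genes (7 genes) summed to 6100 and 3684 CPM in 2 weeks RFP, 8375 and 2785 in 2 weeks YFP and 1149 to 2591 elsewhere, and immediate-early genes (9 genes) to 5065 and 3108, 5419 and 2266, and 2061 to 3314. The highest library of both lists was 2 weeks YFP replicate 1, where Phgdh was at 5.28 CPM and Atf4 at its highest. Cycling markers (7 genes) were lowest in 2 weeks YFP replicate 2 (93.5 CPM) and highest in 2 weeks RFP replicate 1 (536), and AT2 markers were lowest in both 2 weeks RFP libraries and 4 days RFP replicate 2, which are also the 3 highest for Phgdh. Their part in the differences was not tested.

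In single cells, the members were highest, apart from Shmt1 and Atf4, in 2 clusters. Alveolar cells formed 13 clusters, named here by their leading genes. The Ndrg1 and Hmga2 cluster (919 cells, 50.9% from 4 days RFP replicate 2) and the Procr and F3 cluster (1305 cells, 81.4% from 2 weeks RFP replicate 2) were both DATP-like by their markers. Because these genes took part in the clustering, the cluster levels are a description. Levels in sets of cells are unscaled CPM, the UMIs of a gene over all UMIs of these cells without the TMM scaling. In the summed cells of each cluster, Phgdh was at 525 unscaled CPM (exact 95% interval for counting error 511 to 538) in the Ndrg1 cluster, at 163 (157 to 169) in the Procr cluster and at 1.33 to 43.5 in the other 11. Asns was at 99.5 and 78.8 against 6.44 to 16.8, and Chac1 at 15.5 and 7.92 against 0.615 to 1.7. Trib3 was at 27.9 and 12.9 against 3.01 to 8.16. Shmt1 went another way, highest in the Meg3 and Kng2 cluster (27.8), at 7.83 in the Ndrg1 cluster and lowest in an AT2-like cluster led by Chia1 (6.26). Atf4 was highest in the cluster led by the immediate-early genes Nfkbia and Atf3 (236) and in the Ndrg1 cluster (220), against 87.8 to 188 elsewhere.

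**Figure D4:**
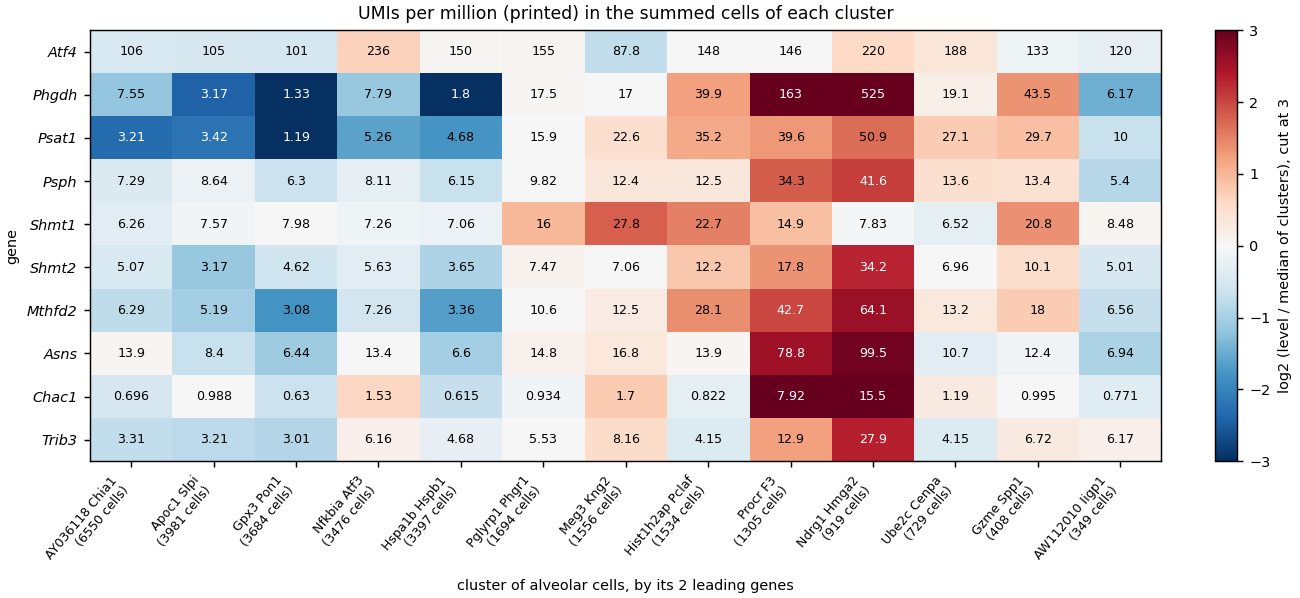
Unscaled CPM (UMIs over all UMIs of the cells) of each gene in the summed cells of the 13 alveolar clusters, ordered by size and labelled by 2 leading genes, with colour for the log2 ratio to the median cluster (cut at 3). The Procr and Ndrg1 clusters are the highest for Phgdh (163 and 525), Asns, Chac1, Psph, Shmt2, Mthfd2, Psat1 and Trib3, whereas Shmt1 peaks in the Meg3 cluster and Atf4 runs from 87.8 to 236.

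The Ndrg1 cluster had like levels of Phgdh in both libraries that gave it at least 50 cells, 547 unscaled CPM in 4 days RFP replicate 2 and 520 in 2 weeks RFP replicate 1. Both clusters together held 36.3%, 12.8% and 39.4% of the alveolar cells in 4 days RFP replicate 2 and 2 weeks RFP replicates 1 and 2, and at most 42 cells in any other library. They carried 95.3%, 73.4% and 81.5% of the Phgdh UMIs of these 3 libraries. In wildtype libraries few cells did so too: 12 and 28 cells carried 56.4% and 78.9% of the Phgdh UMIs of 2 weeks YFP, and 7 cells carried 41.0% of those of 4 days YFP replicate 2. For Asns the shares were 88.1%, 51.7% and 72.7%, for Psat1 73.9%, 29.0% and 44.5%, and for Shmt1 25%, 8.91% and 24.5%. The level inside over that outside was 31.6, 16.8 and 7.34 for Phgdh, 11.6, 6.52 and 4.44 for Asns, and 0.52, 0.60 and 0.54 for Shmt1. Shmt1 was thus the only member with a lower level inside than outside in all 3 libraries, and Atf4 had ratios of 1.94, 1.31 and 1.49.

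Outside both clusters the median ratio of RFP to YFP over the 4 pairs was lower than over all alveolar cells for 9 members (unscaled, 5.73 against 10.3 for Phgdh and 1.69 against 3.97 for Asns) and higher for Shmt1 (2.07 against 1.85). In the pair of 2 weeks replicates 2 the ratio was also higher for Phgdh (7.19 against 5.48) and Psat1 (4.97 against 4.196). Phgdh was there at 24.99 and 25.2 unscaled CPM in 2 weeks RFP, 14.5 and 15.6 in 4 days RFP, 2.33 and 3.50 in 2 weeks YFP, 6.64 and 3.66 in 4 days YFP, and 2.21 and 2.11 in Confetti. Every mutant library lay above every wildtype library, and the replicates of 4 days RFP, which differed 11.5-fold over all alveolar cells (TMM-scaled), were alike. Psat1 was at 20.8 and 26.9 in 2 weeks RFP against 6.64 and 5.40 in 2 weeks YFP. Shmt1 was at 17.3 and 27.6 in 2 weeks RFP against 7.06 and 7.15, its 3.86-fold pair being the widest. For Asns the colours came together at 4 days, with 16.9 and 8.88 in RFP and 16.3 and 7.70 in YFP, and stayed apart at 2 weeks, with 14.4 and 18.0 against 6.45 and 7.45. Chac1 was at 0.99 and 1.78 in 2 weeks RFP and 0.50 and 2.04 in 2 weeks YFP, which overlap. In these cells RFP lay above YFP in all 4 pairs for 8 members and for 23% of all genes tested, and in 3 of 4 pairs for Atf4 and Chac1. The members took part in the clustering that set these cells apart, so the count is a description.

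**Figure D5:**
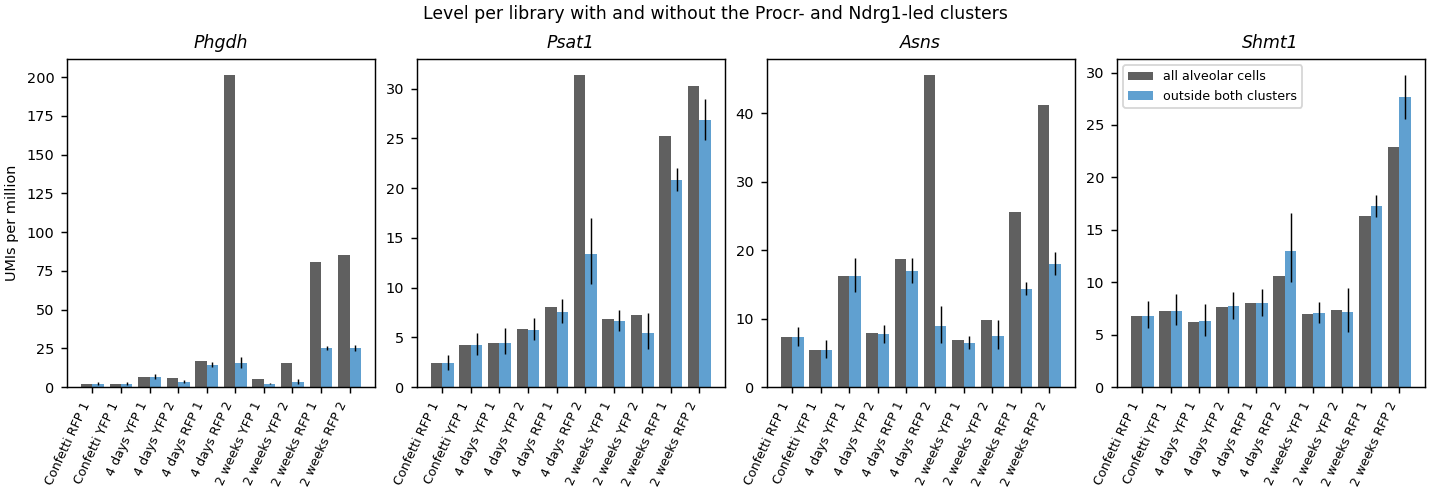
Unscaled CPM of Phgdh, Psat1, Asns and Shmt1 in each library, over all alveolar cells (grey) and over cells outside the Procr- and Ndrg1-led clusters (blue, bars are exact 95% intervals for counting error). Phgdh falls from 202 to 15.6 in 4 days RFP replicate 2 and from 80.6 and 85.1 to 24.99 and 25.2 in 2 weeks RFP, while Shmt1 in 2 weeks RFP is higher without both clusters.

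Cycling cells differed from the rest by gene. In the 8 libraries with at least 50 cells in both cycling clusters together, the level in cycling cells over that in other cells outside the DATP-like clusters was 2.21 to 21.8 for Psat1 (median 5.01), 2.05 to 4.54 for Phgdh (median 2.97) and 2.21 to 7.05 for Mthfd2 (median 2.94), above 1 in every one of these libraries, wildtype ones included, though Phgdh rested on 3 and 5 UMIs in the cycling cells of Confetti. Psph ran from 1.02 to 2.98. Of the ATF4 targets outside serine synthesis, Asns ran from 0.27 to 1.21 (median 0.76) and Trib3 from 0.45 to 1.04 (median 0.85). Neither was thus above 1 throughout, but in the cycling cells of Confetti Asns rested on 3 and 2 UMIs and Trib3 on 2 and 1. Chac1 ran from 0.24 to 2.42 (median 0.93). It rested on 1 or 2 UMIs in the cycling cells of every library but 2 weeks RFP replicate 1 (18 UMIs). Its counts are too low to show or exclude an excess. Shmt2 had a median of 1.83 but ran from 0.31 to 3.89. In 2 weeks RFP replicate 2, Psat1 was higher in cycling cells (60.5 unscaled CPM) than inside the DATP-like clusters (36.0). The order was the other way in 4 days RFP replicate 2 (31.3 against 59.5) and 2 weeks RFP replicate 1 (34.4 against 51.9).

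Phgdh UMIs were seen in 28.2% and 28.4% of the cells of 2 weeks RFP, 6.65% and 25.8% of 4 days RFP, 1.28% and 3.37% of 2 weeks YFP, 3.43% and 2.21% of 4 days YFP, and 0.842% and 0.685% of Confetti RFP and YFP. Because 2 weeks RFP had more UMIs per cell, each cell was also thinned to 2000 UMIs, which left out at most 6 cells per library. The shares were then 8.32% and 9.70% in 2 weeks RFP, 2.31% and 15.5% in 4 days RFP, 0.473% and 0.892% in 2 weeks YFP, 1.07% and 0.783% in 4 days YFP, and 0.447% and 0.305% in Confetti. The library with the largest share was thus 4 days RFP replicate 2, as in the sums. For Atf4 thinning removed the contrast: with all UMIs 83.3% and 64.9% of 2 weeks RFP cells had a UMI against 38.6% and 35.2% of Confetti, and after thinning 27.5% and 19.8% against 21.8% and 23.6%. Asns went from 24.1% and 24.8% to 4.52% and 5.81% in 2 weeks RFP, against 1.42% and 1.04% in thinned Confetti cells.

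None of the cell types that were discarded is known to lack these genes, so their shares are not a pure background. Ciliated cells (265 cells, median 5758 UMIs) had Phgdh in 2.26% (exact 95% interval 0.84 to 4.86), and 0 of 265 had a UMI of Chac1 or Trib3. At this depth that limits the share of cells with a UMI (up to 1.38% by the exact interval), not the share that express either gene. Immune cells had Phgdh in 43.8% of 2418 cells (median 7071 UMIs), a larger share than any alveolar library. The levels were highest in macrophages led by Chil3 and Ccl6 (66.1% of 1314 cells, 175 unscaled CPM) and in a cycling cluster with Chil3 among its leading genes (87.8% of 148 cells, 300.3), while cells led by C1qa had 6.85 unscaled CPM. Mthfd2 was at 21.0 unscaled CPM in immune cells, Psat1 at 9.43, Asns at 4.26 and Trib3 at 0.97. The immune markers (10 genes) summed to 14.4 to 33.7 CPM in the alveolar sums and to 7210 to 22856 unscaled CPM in the immune cells of the same libraries. At the ratio of Phgdh to these markers in immune cells, that residue carries 0.05 to 0.38 unscaled CPM of Phgdh, against 2.11 to 202 measured in alveolar cells.

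Within a library, cells with a Phgdh UMI had more of most other members. In the 4 RFP libraries the level of Asns in cells with Phgdh over that in cells without was 3.25 to 5.27, that of Mthfd2 3.18 to 5.61, that of Psat1 2.12 to 3.72 and that of Chac1 4.98 to 10.3. Atf4 gave 1.08 to 1.58 and Shmt1 0.42 to 1.23. In 2 weeks YFP, where 54 and 34 cells had a Phgdh UMI, the ratio was 6.14 and 6.87 for Asns and 3.84 and 7.15 for Mthfd2. Cells with a Phgdh UMI were deeper, with medians of 20858 against 14552 UMIs in 2 weeks RFP replicate 1, and the part of depth and of cell state in these ratios was not tested.

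Across the 10 libraries, the log2 levels (CPM + 0.5) of Phgdh and of the other members apart from Atf4 had Pearson correlations of 0.78 (Shmt1) to 0.98 (Mthfd2), and that with Atf4 was 0.14. These points share libraries, groups and composition, so the values are a description. Among all genes tested, those most like Phgdh were Chic2 (r = 0.99), Adm2 (0.99), Lgals3 (0.98), Mthfd2 (0.98) and Ajuba (0.97), all over 10 libraries. Psat1 ranked 10th of all genes by this measure. The genes most like Psat1 were Hmga2, Mthfd2, Mak16, Dctd and Pcdh1 (r = 0.98 each). Those most like Asns were Gars (0.97), Cttnbp2nl (0.97), Mars (0.97), Tpm1 (0.96) and Prss23 (0.96), of which Gars and Mars are tRNA synthetases.

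The members lie on 8 chromosomes (GRCm38, GENCODE M21). Serine synthesis genes are Phgdh (ENSMUSG00000053398, chromosome 3, 98313170 to 98339990), Psat1 (ENSMUSG00000024640, chromosome 19, 15904678 to 15947337) and Psph (ENSMUSG00000029446, chromosome 5, 129765558 to 129787449). The folate genes are Shmt1 (chromosome 11, 60788104 to 60811718), Shmt2 (chromosome 10, 127517123 to 127522444) and Mthfd2 (chromosome 6, 83305691 to 83325908). Atf4 lies on chromosome 15 (80255184 to 80257541), Asns on chromosome 6 (7675169 to 7693254), and Chac1 (119351229 to 119354381) and Trib3 (152337422 to 152344032) on chromosome 2. None overlaps another annotated gene on its strand, and all 10 passed the filter on low counts in every comparison, with 516 UMIs in all for Chac1 and 32905 for Atf4.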

How the data were processed

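Values deposited by the authors are UMI counts for every gene in every barcode, without normalization, from Cell Ranger (version 5.0.1 per the file headers, 3.1.0 in the submitters' processing notes, which also list FastQC 0.11.3 and MultiQC 1.8) against GRCm38. Barcodes with at least 1000 genes, at most 50000 UMIs and at most 15% mitochondrial UMIs were kept, clustered (Louvain, scanpy 1.11.5 and igraph 0.11.9) and stripped of immune, endothelial, mesenchymal and ciliated cells. Names came from marker lists. No doublets were removed. Counts of alveolar cells were summed per library and tested with edgeR 4.0.16 (R 4.3.3; TMM, filterByExpr, quasi-likelihood test, 6 groups over 10 libraries; the fit over both time points used the 8 mosaic libraries with time as a term), with Benjamini-Hochberg adjustment at 0.05. The fit was tested on simulated data. Levels are TMM-scaled CPM. Alternatives were DESeq2 1.42.0, RLE factors, no filter, all filtered cells, no cycling clusters, each library left out, and the replicate number as a block. No label says that equal numbers share lungs, but in the data RFP and YFP libraries of 1 number deviated together (r = 0.475 at 4 days and 0.550 at 2 weeks over 13781 genes), so blocked counts stand beside the others. Libraries are the replicates. Where no source says that they came from separate mice, p-values measure the spread between these libraries.

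The members and the gene lists were chosen with earlier results of these data known. All 10 members are named. The mutated gene and 1 called gene of the lists are not reported here. Genes named from the lists are among those called in a comparison (at most 6, by size of change) or, where fewer than 3 were called, those with the largest change at 20 CPM or more in 1 library that make up 3. Not all of these are printed, and the 4 days levels of Aars were picked after they were seen. The genes most like a member are the 5 with the highest Pearson correlation, for the 3 members with the widest range of group means of log2(CPM + 0.5) (Phgdh, Psat1 and Asns, whereas by the fold between mean CPM Chac1 takes the place of Asns). UMIs collapse PCR copies, and intervals for single libraries or clusters cover counting error only. Promoter sequences are from RefSeq (GRCm38.p6), where all 10 symbols matched.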

Additional observations from a re-analysis of the deposited data

Results flagged for a closer look

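In 2 weeks YFP replicate 2, Phgdh stood apart from the other 3 YFP libraries of the mosaic mice: it was at 18.3 CPM, the nearest other at 6.84, and the gap was 0.88 of the range of the 4 libraries. Shmt2 did the same in that library, with 7.05 CPM against 4.14 and a gap of 0.894 of the range. In all, 20 groups of 4 libraries were looked at in this way, and chance alone gives such a gap in about 1 in 20 of them. In that library 28 of 1009 cells, those of the DATP-like clusters, carried 90 of the 114 Phgdh UMIs (78.9%) and 14 of the 44 Shmt2 UMIs (31.8%). The other 981 cells had Phgdh at 3.50 unscaled CPM, within the 2.33 to 6.64 of the same cells in the other 3 YFP libraries, and Shmt2 at 4.38, above their 3.40 to 3.93. The library also had the largest share of discarded cells, 42.2%.

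Eif2ak2, a kinase of eIF2, lay lower in both RFP libraries than in both YFP libraries at 4 days and higher at 2 weeks, and passed at neither time (edgeR, adjusted p = 0.906 and 0.253). The libraries had 8.09 and 7.77 CPM in RFP and 11.1 and 12.3 in YFP at 4 days, and 13.7 and 19.5 in RFP and 10.5 and 9.62 in YFP at 2 weeks. The difference between the log2 effects was 1.28, and 0 of 13781 genes passed the test of such a difference (edgeR).

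Discarded cells of 2 weeks RFP, mostly immune, had more of 4 members than discarded cells of Confetti, pooled over both libraries of each. Phgdh was at 160.8 unscaled CPM (exact 95% interval 153.6 to 168.2) against 27.15 (20.3 to 35.5), Psat1 at 9.87 (8.145 to 11.8) against 3.07 (1.13 to 6.69), Shmt1 at 4.89 (3.70 to 6.335) against 1.025 (0.124 to 3.70) and Mthfd2 at 19.6 (17.1 to 22.3) against 6.66 (3.55 to 11.4). The pooled values hide differences between libraries: Phgdh was at 47.9 in replicate 1 and 179.9 in replicate 2 of 2 weeks RFP, and Mthfd2 at 38.4 and 16.4. Nor were they particular to RFP, since discarded cells of 2 weeks YFP had Phgdh at 67.0 and 129.7, Psat1 at 10.7 and 7.33, Shmt1 at 6.09 and 3.85, and Mthfd2 at 20.6 and 13.2. The intervals cover counting error only, and the makeup of the discarded cells differed between these libraries.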

How the results depend on the processing

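Values run over both time points, 2 weeks and 4 days (RFP against YFP), then 2 weeks RFP and 2 weeks YFP against Confetti. DESeq2 called 1254, 462, 96, 2222 and 102 genes. It called 19, 7, 2, 38 and 1 genes of the wider lists, and 6, 3, 0, 6 and 0 members. Without the filter on low counts these were 1922, 1378, 496, 3247 and 536 genes, 31, 19, 13, 45 and 6 list genes, and 9, 6, 7, 9 and 2 members. With RLE factors 1 gene was called at 2 weeks between colours. With all filtered cells 0 genes, 0 list genes and 0 members were called against Confetti in 2 weeks RFP, and 0 genes in 2 weeks YFP. Without cycling clusters 3 members were called in 2 weeks RFP against Confetti. With the replicate block, 2240, 2183 and 141 genes, 31, 27 and 3 list genes, and 8, 6 and 0 members were called between colours. The cause of these moves was not tested. Leaving out each library in turn gave 0 to 1482, 0 to 1, 0 to 193, 1 to 1915 and 0 to 7 genes. The same gave 0 to 24, 0 to 7 and 0 to 35 list genes, and 0 to 7, 0 to 5 and 0 to 8 members, over both time points, at 4 days and in 2 weeks RFP against Confetti. The highest values between colours came without 4 days RFP replicate 1 (1482 and 193 genes).

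For the 9 members other than Atf4, the sign of the fold change stayed in 465 of 468 alternative fits, and 436 lay within 1 standard error of the first value, where a library left out counts only if it is in the comparison. Low depth limits Chac1, with 5 UMIs in 1 library.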
